A study of Homo sapiens with 12 samples.

Results

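Expression of 10 circadian clock genes was followed in A375 cells, an established human melanoma line, over 12 RNA sequencing libraries. The 10 were taken by name from the 61209 gene names of the count table: PER1, PER2, PER3, CRY1, NR1D1, NR1D2, DBP, TEF, BHLHE40 and BHLHE41. The choice was made with earlier results of these data known, and further clock genes are given below. All 10 had enough counts to be tested. The libraries form 4 groups of 3: control cells with glucose, control cells after 5 h without glucose, OGDH-depleted cells with glucose, and OGDH-depleted cells after 5 h without glucose. The OGDH protein is the catalytic E1 component of 2-oxoglutarate dehydrogenase in the tricarboxylic acid cycle. The titles call the depleted cells KO and the series text calls them a knockdown, and neither gives the construct, the number of clones or the nature of the control. No label ties the 3 libraries of a group to separate cultures, and the p-values thus reflect a spread between libraries that may be technical. Each group was collected at 1 time after starvation, and no label gives the time of day or a synchronising step, so the values are levels in a culture and not rhythms.

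In the mammalian clock, CLOCK or NPAS2 pairs with BMAL1 (ARNTL). The pair binds E-boxes, CACGTG in their canonical form, of the PER and CRY genes, whose proteins return to block it. The same pair drives the nuclear receptors NR1D1 and NR1D2 (REV-ERB alpha and beta), which repress ARNTL; the PAR bZIP activators DBP and TEF, which act on D-box genes; and BHLHE40 and BHLHE41 (DEC1 and DEC2), which compete for E-boxes. Several of these genes, PER1 and BHLHE40 among them, also respond within hours to signals from outside the clock such as CREB activation, glucocorticoid or hypoxia.

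Because the E-box is the site bound by the pair above, the promoters of these genes were searched for it. The RefSeq promoter table (GRCh38.p14) held 13 windows for the 10 genes, each of 300 bases, from 250 before to 50 after a start site. CACGTG, which reads the same on both strands, occurred in windows of 5 of the 10 genes (6 of 13 windows), against 7.256% of all 35116 windows and 8.775% of 27305 genes. The 5 genes were PER1, NR1D2, TEF, BHLHE40 and BHLHE41. One window for each follows, 5′ to 3′ on the gene's own strand, with each E-box in capitals; for TEF and NR1D2, which have a pair of windows each, the window at the later start site is shown.
PER1, chr17:8152355-8152654, minus strand: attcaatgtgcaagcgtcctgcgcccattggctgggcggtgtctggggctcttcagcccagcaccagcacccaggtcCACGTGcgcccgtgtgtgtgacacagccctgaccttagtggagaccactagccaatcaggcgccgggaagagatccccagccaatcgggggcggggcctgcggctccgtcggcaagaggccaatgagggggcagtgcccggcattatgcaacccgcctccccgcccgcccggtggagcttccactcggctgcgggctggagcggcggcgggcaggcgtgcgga
NR1D2, chr3:23945871-23946170, plus strand: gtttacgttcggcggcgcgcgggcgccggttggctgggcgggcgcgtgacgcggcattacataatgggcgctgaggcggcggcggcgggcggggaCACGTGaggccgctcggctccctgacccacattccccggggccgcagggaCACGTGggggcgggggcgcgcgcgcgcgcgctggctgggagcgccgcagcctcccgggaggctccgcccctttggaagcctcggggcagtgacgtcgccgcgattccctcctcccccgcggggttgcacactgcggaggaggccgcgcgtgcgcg
TEF, chr22:41381692-41381991, plus strand: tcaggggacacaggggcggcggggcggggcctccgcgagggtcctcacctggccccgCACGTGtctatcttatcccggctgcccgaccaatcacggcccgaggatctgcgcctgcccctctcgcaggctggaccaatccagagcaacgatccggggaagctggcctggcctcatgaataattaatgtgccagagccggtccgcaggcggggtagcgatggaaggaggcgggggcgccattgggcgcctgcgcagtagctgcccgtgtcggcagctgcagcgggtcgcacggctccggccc
BHLHE40, chr3:4979187-4979486, plus strand: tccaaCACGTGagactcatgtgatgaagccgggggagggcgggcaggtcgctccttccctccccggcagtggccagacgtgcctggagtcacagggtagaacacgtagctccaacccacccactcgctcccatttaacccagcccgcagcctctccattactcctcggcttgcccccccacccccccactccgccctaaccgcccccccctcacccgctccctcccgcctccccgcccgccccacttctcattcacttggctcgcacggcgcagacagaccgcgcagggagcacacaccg
BHLHE41, chr12:26124988-26125287, minus strand: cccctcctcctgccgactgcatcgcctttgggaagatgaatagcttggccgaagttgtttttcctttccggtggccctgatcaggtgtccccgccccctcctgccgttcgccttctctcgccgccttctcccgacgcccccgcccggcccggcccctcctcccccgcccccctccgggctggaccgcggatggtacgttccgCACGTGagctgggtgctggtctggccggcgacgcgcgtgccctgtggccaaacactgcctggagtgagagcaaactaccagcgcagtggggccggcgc
Counting back from the start site, the E-box began at base -173 in PER1, at -155 and -105 in NR1D2, at -193 in TEF, at -245 in BHLHE40 and at -48 in BHLHE41. The other TEF window also held it, at -195. The 5 genes without it lie, by the deposited gene models (hg38), at chr2:238244044-238290102 (PER2, minus strand), chr1:7784291-7845177 (PER3, plus), chr12:106991364-107093549 (CRY1, minus), chr17:40092793-40100589 (NR1D1, minus) and chr19:48630030-48637379 (DBP, minus). Another 4 motifs were searched on both strands. TGACG, the core of the cyclic AMP response element, lay in 4 windows of 3 genes (CRY1, NR1D2 and PER2) against 24.553% of all windows. The full element TGACGTCA, every match of which also contains that core, was in none of the 13, against 1.848% of all windows. The D-box form TTATGTAA lay in 2 windows (PER3 and NR1D2) against 0.886%, and the ROR and REV-ERB site AGGTCA in 1 (PER1) against 13.831%. The windows of the 10 genes had 63.0% to 81.0% GC, and the shares over all windows were not matched for it. A match describes these letters in these windows and is not a measured binding site. The lack of a match does not exclude other forms of a motif, which were not searched, or sites outside the windows.

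The libraries held 21556273 to 25546615 counts each. OGDH, the targeted gene, stood at 154 ± 11.9 CPM (a count set against its library's scaled total; SD, n = 3) in control cells with glucose and 131 ± 2.01 in starved control cells, against 39.8 ± 4.68 and 32.8 ± 0.904 in the depleted groups, so each library matched its label. Of the melanoma markers SOX10 was high (group means 348 to 633 CPM) and MITF was present (25.9 to 44.2 CPM), while the pigment genes were near 0: TYR had group means of at most 0.0187 CPM and MLANA 0.852 to 1.32. Among keratinocyte markers KRT1 was at 0 in every library and KRT5 had group means of at most 0.112 CPM, but KRT14 was at 3.61 to 6.25 CPM. Of the fibroblast markers LUM (group means 3.22 to 5.28 CPM) and PDGFRB (3.92 to 8.08 CPM) were detected. COL1A1 was at 1.20 to 1.48 CPM and DCN at 0.535 to 0.824 CPM. PTPRC of blood cells had group means of at most 0.153 CPM. The 3 libraries farthest from the others of their group were control 2, starved control 3 and starved depleted 3. Their root mean square distances were 0.595, 0.587 and 0.492 on the log2 scale. Starved depleted 1 (0.462) and control 1 (0.440) came next, so starved depleted 3 was only slightly set apart. The 3 farthest libraries, called outlying below, differed from their groups in GC slope, the tilt of a library's log2 level per 10 points of gene GC content. The slope was -0.290 in control 2 against 0.212 and 0.146 in the other fed control libraries, and 0.179 in starved control 3 against -0.203 and -0.251 in the other starved control libraries. In starved depleted 3 it was -0.327 against 0.0835 and -0.0730, and the fed depleted libraries all lay between 0.172 and 0.178. The share of counts from the mitochondrial genome ran from 3.06% to 14.6% over the libraries and was 14.6% in control 2, 14.4% and 13.2% in starved control 1 and 2, and 4.11% in starved control 3. The number of clock genes called is therefore given with and without those 3 libraries. Leaving them out does not even out the slope: the fed control libraries that remain have positive slopes and the starved control libraries negative ones.

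Levels were set per kb of the full exon length, a rough scale for comparing genes. That length includes exon bases shared with other genes, where fragments were not counted. On this scale NR1D1 had the highest level of the 10 in control cells with glucose (15.02 ± 1.12 CPM per kb, SD, n = 3). BHLHE40 at 9.50 ± 0.544 and NR1D2 at 9.28 ± 2.44 followed with overlapping libraries, as did CRY1 at 4.11 ± 0.580 and PER1 at 4.003 ± 0.107. BHLHE41 was at 1.20 ± 0.312. PER2 (0.691 ± 0.134), DBP (0.686 ± 0.153) and TEF (0.629 ± 0.220) overlapped each other, and PER3 was lowest at 0.137 ± 0.0269. After starvation of control cells BHLHE40 led at 55.6 ± 2.45 CPM per kb, ahead of NR1D1 at 32.6 ± 2.85 and NR1D2 at 20.4 ± 3.79. In starved OGDH-depleted cells NR1D1 (21.3 ± 0.981), NR1D2 (18.3 ± 1.79) and BHLHE40 (16.6 ± 1.20) were again the top 3. Every NR1D1 library there lay above those of the other two, while NR1D2 and BHLHE40 overlapped.

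**Figure D1:**
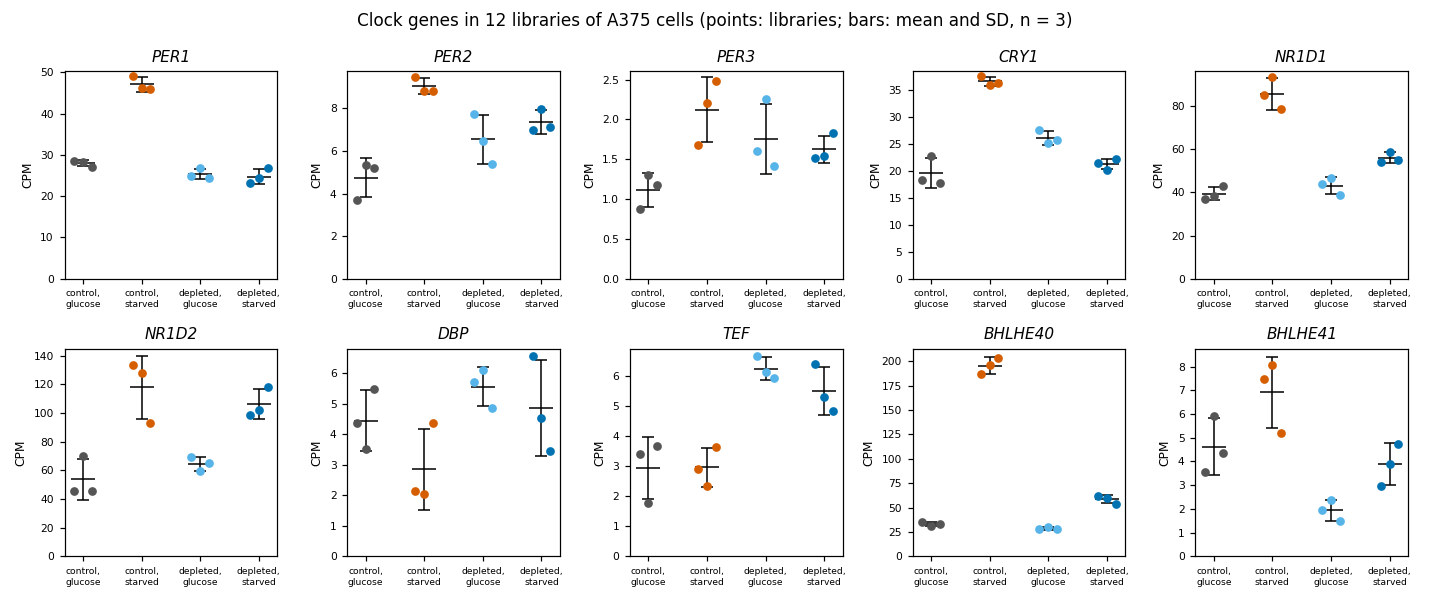
CPM of each of the 10 clock genes (vertical axes, each from 0) in the 4 groups; points are libraries in replicate order, and bars give the mean and SD of 3 libraries. BHLHE40 rises from 31.5 to 35.4 CPM with glucose to 187 to 204 CPM in starved control cells, and to 53.9 to 62.2 CPM in starved depleted cells.

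Glucose starvation of control cells raised 7 of the 10 clock genes and lowered none by edgeR's quasi-likelihood test (adjusted p under 0.05); over all 18526 genes tested, 34.5% passed, 17% higher and 17.5% lower. The median log2 fold change of the 10 was 0.91, against -0.02 over all genes tested. BHLHE40 had the largest change, then the REV-ERB genes, then CRY1 and the PER genes. DBP, TEF and BHLHE41 did not pass. The count was 9 without the 3 libraries, 8 of them higher, since BHLHE41 and DBP also passed then, but the share over all genes also went up, to 60.5%. In bulk RNA, fewer cells that express a gene and less of its RNA per cell cannot be told apart.

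PER1, which forms the repressor complex with the CRY proteins, stood at 28.5, 28.4 and 27.2 CPM in control cells with glucose and at 49.0, 46.2 and 45.9 CPM after starvation. All 3 starved libraries lay well above all fed ones, and the log2 fold change was 0.75 (SE 0.09, adjusted p = 7.88e-05 by edgeR). PER2, its paralog, read 3.69, 5.36 and 5.19 CPM with glucose and 9.48, 8.81 and 8.84 CPM without, again with no overlap (0.93, SE 0.17, adjusted p = 0.00134). PER3, the least abundant of the family here, read 0.872, 1.30 and 1.17 CPM against 1.68, 2.20 and 2.48 CPM. Its groups did not overlap either (0.94, SE 0.24, adjusted p = 0.00977), on 22 to 59 counts a library. CRY1, the partner repressor, stood at 18.3, 22.8 and 17.8 CPM with glucose and at 37.5, 36.0 and 36.3 CPM without. Its starved libraries were tight and all above the fed ones (0.90, SE 0.11, adjusted p = 8.38e-05).

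NR1D1 read 37.2, 38.5 and 42.8 CPM in fed control cells and 85.1, 93.6 and 78.6 CPM in starved ones, with a log2 fold change of 1.12 (SE 0.11, adjusted p = 1.16e-05). NR1D2, the second REV-ERB, read 45.9, 70.1 and 45.4 CPM against 133, 128 and 92.9 CPM (1.13, SE 0.18, adjusted p = 0.000649). Both REV-ERB genes more than doubled without overlap between the groups. The high fed value of NR1D2 was control 2 and its low starved value was starved control 3, both among the 3 outlying libraries, and without these the log2 fold change was 1.51. Some 17.98% of the NR1D1 exon bases overlap exons of THRA, a gene on the other strand, and fragments there were not counted for either gene. The shares for PER3 (16.6%, with UTS2 and a gene that has no symbol), BHLHE40 (12.8%, with BHLHE40-AS1) and DBP (10.2%, with SPHK2) were smaller, and NR1D2 and TEF had none.

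BHLHE40 read 35.4, 31.5 and 33.4 CPM with glucose and 187, 196 and 204 CPM without. No other of the 10 changed as much in any comparison: the log2 fold change was 2.55 (SE 0.09, adjusted p = 1.24e-08), and every starved library lay far above every fed one. BHLHE41, its paralog, read 3.57, 5.93 and 4.35 CPM against 7.46, 8.06 and 5.22 CPM. These groups overlapped and the difference did not pass (0.58, SE 0.25, adjusted p = 0.0957). It passed in 4 of 17 alternatives, with adjusted p from 0.00151 to 0.28.

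The PAR bZIP genes did not join the others. DBP read 4.36, 3.50 and 5.48 CPM in fed control cells and 2.13, 2.04 and 4.38 CPM in starved ones, a log2 difference of -0.62 (SE 0.32) that did not pass (adjusted p = 0.153). The starved library that overlapped the fed range was starved control 3, and without it the difference passed at -1.09; over the 17 alternatives it passed in 4. TEF read 3.41, 1.77 and 3.68 CPM against 2.92, 2.36 and 3.66 CPM, and differed by 0.02 (SE 0.26, adjusted p = 0.966), with values of both signs among the alternatives. DBP and TEF, with 60.8% and 56.5% GC, followed the GC slope of the libraries. Within groups, over 12 libraries, deviations from the group mean correlated with the slope at r = 0.87 for DBP and 0.91 for TEF, and at -0.93 for NR1D2, whose transcripts have 40.6% GC. BHLHE41 (r = -0.85) and BHLHE40 (0.81) also moved with it, while PER2, PER3 and CRY1 lay at -0.34, -0.20 and -0.66. PER1, which has the highest GC content of the 10 (62.6%), was at -0.52, and NR1D1 (59.5%) at -0.25, so GC content alone did not order the genes. These points share their libraries, and the part of base composition in each result was not tested beyond the alternatives with a GC term.

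**Figure D2:**
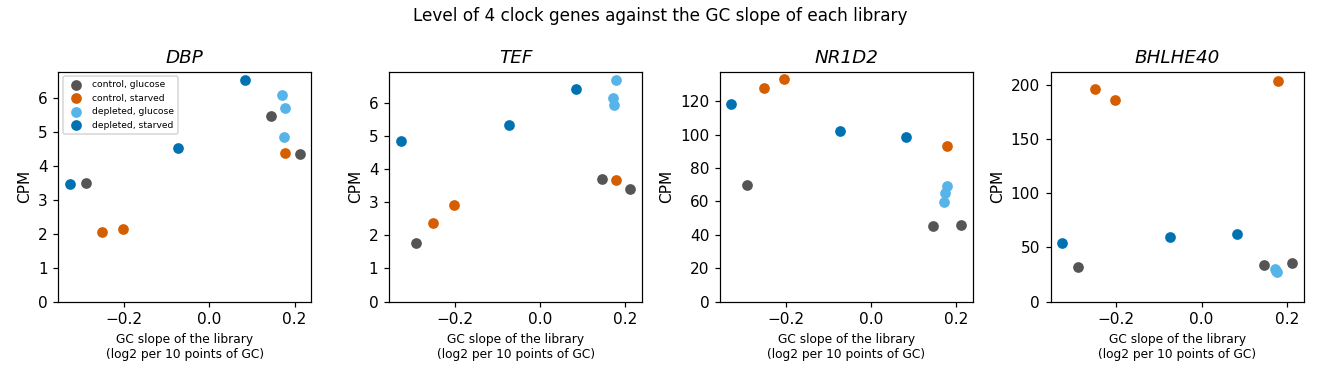
CPM of DBP, TEF, NR1D2 and BHLHE40 (vertical axes, each from 0) against the GC slope of each of the 12 libraries (horizontal axis, log2 per 10 points of GC); colours give the group. DBP and TEF are higher and NR1D2 lower in libraries of positive than of negative slope within the 3 groups whose slopes differ, and BHLHE40 runs from 53.9 to 62.2 CPM in starved depleted libraries and from 187 to 204 CPM in starved control libraries, highest at the highest slope of each.

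In OGDH-depleted cells the same starvation raised 3 of the 10, BHLHE40, NR1D2 and BHLHE41, and lowered none; over all genes tested 7.18% passed, 2.42% higher and 4.76% lower. The median log2 fold change of the 10 was 0.07, against 0.02 over all genes. BHLHE40 went from 27.8, 29.9 and 28.1 CPM to 62.2, 59.4 and 53.9 CPM, with no overlap (1.03, SE 0.09, adjusted p = 7.84e-05). NR1D2 went from 69.3, 59.5 and 65.2 CPM to 98.7, 102 and 118 CPM, also without overlap (0.72, SE 0.18, adjusted p = 0.039). BHLHE41 went from 1.96, 2.38 and 1.49 CPM to 2.99, 3.92 and 4.74 CPM on 40 to 104 counts (0.996, SE 0.27, adjusted p = 0.0473). The NR1D2 call was lost when any 1 of the 6 depleted libraries was left out, and the BHLHE41 call with 5 of the 6, all but starved depleted 1, although both genes stayed positive. BHLHE40 passed in all 17 alternatives.

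NR1D1 in depleted cells read 43.9, 46.5 and 38.8 CPM with glucose and 54.1, 59.0 and 55.2 CPM without. Its groups did not overlap, but the log2 difference of 0.38 (SE 0.10) just missed the threshold (adjusted p = 0.0509) and passed in 6 of 17 alternatives. PER1 read 24.8, 26.8 and 24.5 CPM against 23.2, 24.3 and 26.8 CPM, and its groups overlapped (-0.04, SE 0.09). PER2 (0.17, SE 0.17) and PER3 (-0.11, SE 0.23) overlapped as well. CRY1 was 27.6, 25.1 and 25.7 CPM with glucose and 21.4, 20.2 and 22.2 CPM without. All 3 starved CRY1 libraries were the lower ones here, the opposite order to control cells, but the difference of -0.30 (SE 0.11) did not pass (adjusted p = 0.129). It passed in 3 of 17 alternatives, which had a GC term or left out the 3 outlying libraries. DBP (-0.19, SE 0.30) and TEF (-0.18, SE 0.24) did not pass. Without the 3 libraries the count was 5, 4 higher and 1 lower, with NR1D1 and CRY1 added, while 17.6% of all genes passed.

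The interaction tested whether the starvation response differed between depleted and control cells. It passed as negative, a smaller response in depleted cells, for 6 of the 10: PER1, PER2, PER3, CRY1, NR1D1 and BHLHE40. No positive difference passed; over all genes tested 17.3% passed, 8.95% lower and 8.3% higher. The largest difference was for BHLHE40 (-1.52, SE 0.13, adjusted p = 1.95e-05), so that a response remained in depleted cells but was smaller on the log2 scale. CRY1 followed (-1.19, SE 0.15, adjusted p = 0.000338), then PER3 (-1.05, SE 0.33, adjusted p = 0.0495), PER1 (-0.78, SE 0.13, adjusted p = 0.00159), PER2 (-0.76, SE 0.24, adjusted p = 0.0478) and NR1D1 (-0.74, SE 0.15, adjusted p = 0.00559). BHLHE40 and CRY1 passed in all 22 alternatives. PER1 and NR1D1 passed in 21 and missed with a GC trend removed as an offset (-0.53 and -0.54). PER2 and PER3 lay close to the threshold and passed in 8 and 11 of 22; leaving out a single library ended the call in 10 of 12 cases for PER2, all but control 2 and fed depleted 3, and in 9 of 12 for PER3, all but control 2, fed depleted 3 and starved control 1. NR1D2 (-0.42, SE 0.26), DBP (0.43, SE 0.44), TEF (-0.20, SE 0.35) and BHLHE41 (0.42, SE 0.37) did not pass. Of the responses called in 1 cell state and not in the other, those of PER1, CRY1 and NR1D1 differed by this test, those of PER2 and PER3 did so only in some of the alternatives, and that of BHLHE41 was not shown to differ. Without the 3 libraries 8 passed, with NR1D2 lower (-0.90) and DBP higher (1.23) added, while 43% of all genes passed.

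**Figure D3:**
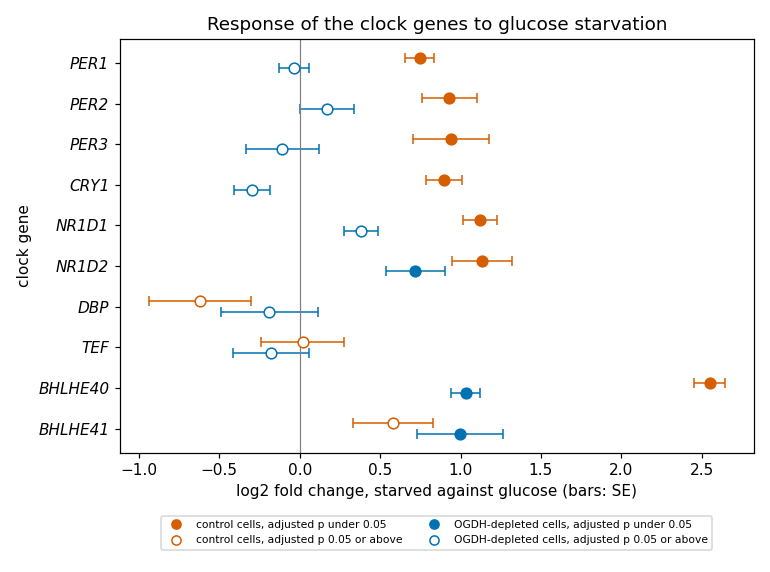
Log2 fold change from glucose to starvation for each clock gene (horizontal axis; bars are the SE of the fit) in control and in OGDH-depleted cells; filled points passed an adjusted p of 0.05. The PER genes and CRY1 lie at 0.75 to 0.94 in control cells and at -0.30 to 0.17 in depleted cells, and BHLHE40 at 2.55 and 1.03.

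With glucose present, OGDH loss changed 2 of the 10, TEF higher and BHLHE41 lower; over all genes tested 3.04% passed, 1.59% higher and 1.45% lower. These comparisons share groups with the starvation comparisons above, so they are not independent of them. TEF read 6.69, 6.14 and 5.94 CPM in depleted cells against 3.41, 1.77 and 3.68 CPM in control cells. All 3 depleted libraries were well above the control ones (1.08, SE 0.25, adjusted p = 0.0403). BHLHE41 read 1.96, 2.38 and 1.49 CPM against 3.57, 5.93 and 4.35 CPM, again without overlap (-1.25, SE 0.27, adjusted p = 0.0298). Both calls were fragile: each was lost when only the 2 groups compared were fitted, the TEF call also without any 1 of the 6 libraries, and the BHLHE41 call without any but control 1. CRY1 was higher in every depleted library (difference 0.41, SE 0.11) but did not pass (adjusted p = 0.0746), and passed in 6 of 17 alternatives. PER2 (0.46, SE 0.17) and PER3 (0.65, SE 0.24) had depleted libraries above all control ones and did not pass (adjusted p = 0.196 and 0.193). PER1 (-0.14) and BHLHE40 (-0.22) had depleted libraries below all control ones and did not pass either, though BHLHE40 did in 3 of 17 alternatives. NR1D1 (0.12), NR1D2 (0.27) and DBP (0.32) overlapped and did not pass. The share of all genes without overlap was not counted. Without the 3 libraries the count was 5, with CRY1 and NR1D2 higher and BHLHE40 lower added, while 10.8% of all genes passed.

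Without glucose, depleted cells had lower levels of 5 of the 10 and a higher level of 1; over all genes tested 28.7% passed, 15% lower and 13.7% higher. BHLHE40 differed most: 62.2, 59.4 and 53.9 CPM in starved depleted cells against 187, 196 and 204 CPM in starved control cells, with no overlap (-1.74, SE 0.09, adjusted p = 3.70e-07). PER1 was 23.2, 24.3 and 26.8 CPM against 49.0, 46.2 and 45.9 CPM (-0.93, SE 0.09, adjusted p = 2.43e-05), and the starved depleted libraries overlapped the fed depleted ones. CRY1 (-0.78, SE 0.11, adjusted p = 0.000303) and NR1D1 (-0.61, SE 0.10, adjusted p = 0.00116) were lower in all 3 depleted libraries. These 4 genes passed in all 17 alternatives. BHLHE41 was also lower, 2.99, 3.92 and 4.74 CPM against 7.46, 8.06 and 5.22 CPM (-0.83, SE 0.25, adjusted p = 0.0286). TEF was higher, 6.40, 5.33 and 4.83 CPM against 2.92, 2.36 and 3.66 CPM (0.88, SE 0.25, adjusted p = 0.0204). Neither gene's groups overlapped, but leaving out either of starved control 1 and 2 or starved depleted 1 ended both calls, and leaving out starved depleted 2 ended that of BHLHE41. PER2 (-0.30, SE 0.17), PER3 (-0.39, SE 0.23) and NR1D2 (-0.15, SE 0.18) did not pass, and DBP, at 6.55, 4.54 and 3.47 CPM against 2.13, 2.04 and 4.38 CPM, did not either (0.75, SE 0.32, adjusted p = 0.0989). Without the 3 libraries 8 passed, with DBP higher (1.39) and NR1D2 lower (-0.40) added, while 52.6% of all genes passed.

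The rest of the clock was followed through 9 further core and loop genes that were tested; HLF, at no more than 0.228 CPM in any library, was not tested. Starvation of control cells raised 5 of the 9 and lowered none, where 17% of all genes rose. NFIL3, the bZIP repressor that opposes DBP and TEF at D-boxes, rose most. It read 5.15, 8.18 and 6.32 CPM with glucose and 44.6, 47.3 and 36.7 CPM without (log2 fold change 2.71, SE 0.17, adjusted p = 4.56e-07). RORA (1.29), ARNTL (0.93), RORB (0.78) and ARNTL2 (0.42) also rose. The RORB groups overlapped, and its call was made in 12 of 17 alternatives, against 15 of 17 for ARNTL2. RORA and RORB encode activators and ARNTL and ARNTL2 the partners of CLOCK. CLOCK (0.05) and NPAS2 (0.09), the partners in that pair, did not pass, nor did CRY2 (0.66, adjusted p = 0.0906) or CIART (0.68). Without the 3 outlying libraries 8 of the 9 rose, CLOCK (0.52), NPAS2 (0.38) and CIART (1.14) included, and CRY2 was at 0.15 and did not pass. Of all genes 60.5% passed there, in either direction. ARNTL and its repressors NR1D1 and NR1D2 were all higher in starved control cells.

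In depleted cells starvation raised 4 of the 9, RORB (1.05), RORA (1.02), NFIL3 (0.71) and ARNTL (0.47), where 2.42% of all genes rose. These calls were made in 12, 13, 12 and 9 of 17 alternatives. The NFIL3 response was smaller there (interaction -2.0, SE 0.23, adjusted p = 0.000162), and its level was 7.60, 8.50 and 9.03 CPM in starved depleted cells. ARNTL2 was the other of the 9 with a lower interaction (-0.41, adjusted p = 0.0493), a call made in 7 of 22 alternatives; 8.95% of all genes passed lower. Without the 3 libraries 5 of the 9 were lower in the interaction, with ARNTL (-0.70), RORA (-0.84) and CLOCK (-0.52) added. There 43% of all genes passed, in either direction. With glucose ARNTL2 was lower after OGDH loss (-0.39, adjusted p = 0.0445), a call made in 6 of 17 alternatives, with adjusted p up to 0.312. Without glucose OGDH loss lowered 4 of the 9, where 15% of all genes were lower: NFIL3 (-2.35), ARNTL (-0.83), ARNTL2 (-0.80) and RORA (-0.67). Without the 3 libraries CLOCK (-0.52) was lower there too, where 52.6% of all genes passed in either direction. CLOCK, ARNTL, RORA, RORB and NFIL3 moved with the GC slope within groups (r of -0.98 to -0.91), CRY2 the other way (0.97), and the part of this in their results was not tested.

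**Figure D4:**
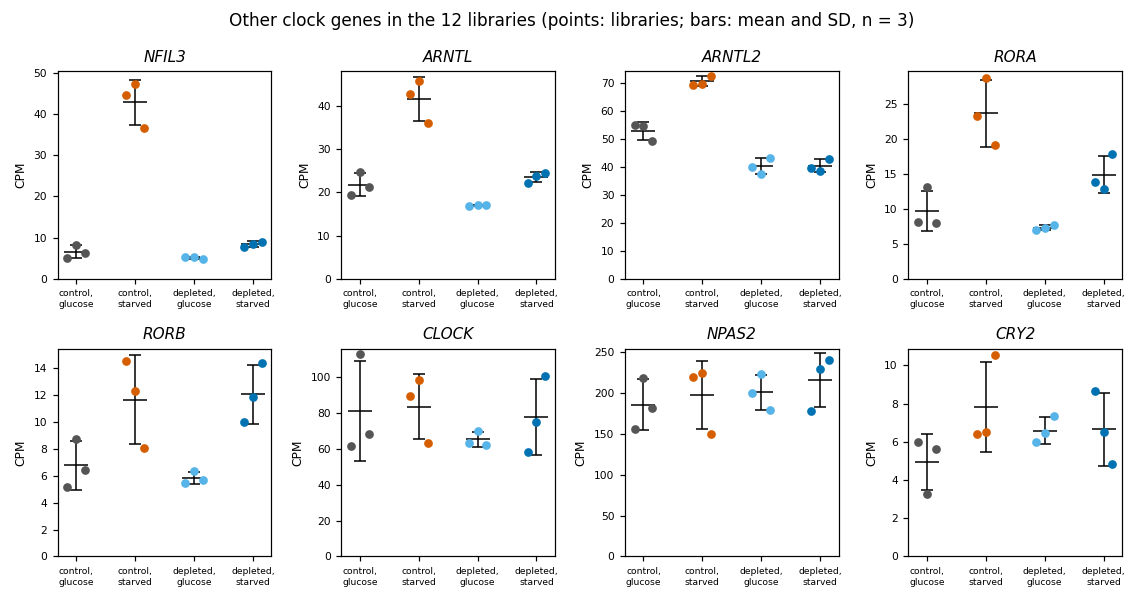
CPM of 8 further clock genes (vertical axes, each from 0) in the 4 groups; points are libraries and bars give the mean and SD of 3. NFIL3 reaches 36.7 to 47.3 CPM in starved control cells and 7.60 to 9.03 CPM in starved depleted cells, while CLOCK and NPAS2 overlap between all groups.

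Some genes mark PER and CRY proteins for decay or spare them. The kinases CSNK1D, CSNK1E and GSK3B, the ubiquitin ligase subunits BTRC and FBXW11, and the deubiquitinase USP2 passed in none of the 5 comparisons. The 3 kinases moved with the GC slope within groups (r = 0.998, 0.985 and -0.962). Without the 3 outlying libraries CSNK1D and CSNK1E passed as lower with starvation of control cells (-0.30 and -0.28) and of depleted cells (-0.32 and -0.29). Of all genes 60.5% and 17.6% passed there, in either direction. GSK3B passed in 7 of 17 alternatives for OGDH loss without glucose. FBXL21P, a pseudogene by its symbol, passed in 3 of the 5, at no more than 1.05 CPM in any library. It was lower with starvation of control cells (-1.46), and higher with OGDH loss without glucose (1.69) and in the interaction (1.52). A further 3 lists, of genes that respond to signals known to reach PER1 and of clock output genes, were counted alongside. The shares of all genes that passed were 34.5% in control cells, 7.18% in depleted cells and 17.3% in the interaction. Of 11 genes that respond to CREB, 10 rose and 1 fell with starvation of control cells and 7 rose in depleted cells (median log2 2.10 and 1.87), with FOS (4.89 and 4.41) and FOSB (4.21 and 2.72) changing most clearly. Of 5 tested glucocorticoid-responsive genes, 4 rose in control cells (median 1.02), and in depleted cells 2 rose and 1 fell (median 0.31); DUSP1 changed by 4.08 and 1.33. In the interaction 4 of these 5 and 4 of the 11 were lower, and 1 of the 11 was higher. Of 5 common clock output genes, 3 rose and 1 fell in control cells and 2 rose in depleted cells, and WEE1 alone passed in the interaction (0.82).

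The genes whose log2 CPM was most like that of each clock gene over the 12 libraries were found among 11701 others (11702 for PER3) whose highest group mean reached 5 CPM. BHLHE40 was closest to DUSP1 and ZNF460 (Pearson r 0.99 for both), a phosphatase of MAP kinases and a zinc finger gene. PER1 was closest to TXNDC11 and EPHB1 (0.99 for both) and NR1D1 to NAV2 and FN1 (0.99 for both). CRY1 was closest to ALG2 (0.98) and FLRT2 (0.96), PER2 to CDH13 and TBX3 (0.93 for both) and PER3 to WASF2 (0.89). NR1D2 was closest to MDM4 (0.99) and USPL1 (0.98), BHLHE41 to PAIP2 and YEATS2 (0.98 for both), DBP to ALKBH5 and WDR24 (0.96 for both) and TEF to TLE5 and MAF1 (0.97 for both). No member was among the closest 2 of another. Over so few libraries these values describe a shared pattern over the 4 groups and the shared base composition of libraries.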

How the data were processed

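Messenger abundance was measured in 12 libraries of A375 cells. The authors deposited 1 table of raw counts of fragments per gene name over exons, made with featureCounts 2.0.1 without strand, per the file headers; fragments that map to several places or overlap several genes are not counted at these settings. The gene Length column, also as deposited by the authors, gave values per kb. The submitters' processing notes name Subread and hg38; the aligner is not given in the sources used here.

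Counts were tested with edgeR 4.0.16 (R 4.3.3; filterByExpr with minimum count 10 and minimum total 15; TMM scaling; quasi-likelihood test; 1 mean per group; Benjamini-Hochberg adjustment over 18526 genes). Each value is in CPM of the scaled library size, each ± an SD of 3 libraries. No label says that the replicate numbers pair the libraries, and the main fit did not use them as pairs. GC content came from GENCODE v29 transcripts and covered 81.9% of tested genes; the others were set to the median. The median SE was 0.22 in the control starvation comparison and 0.31 in the interaction. Some genes of the lists are not reported here. Members, lists and naming rules were chosen with earlier results of these data known. Of the CREB, glucocorticoid and output lists at most 3 genes each were named, those of smallest p.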

Additional observations from a re-analysis of the deposited data

Results flagged for a closer look

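In 6 of the 10 clock genes the starvation response differed between depleted and control cells by the interaction test of edgeR. Over all genes tested 17.3% passed, 8.95% lower. The difference in log2 fold change was -0.78 for PER1, -0.76 for PER2, -1.05 for PER3, -1.19 for CRY1, -0.74 for NR1D1 and -1.52 for BHLHE40. The PER2 and PER3 calls were made in only 8 and 11 of 22 alternatives. Among the other clock genes the difference was -0.41 for ARNTL2, called in 7 of 22 alternatives, and -2.0 for NFIL3. For FBXL21P, a pseudogene by its symbol, it was 1.52, on no more than 1.05 CPM in any library.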

How the results depend on the processing

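Of 24 calls over 10 genes and 5 comparisons, 14 passed under every alternative and none changed sign. For starvation in control cells, OGDH loss without glucose and the interaction, the number of genes called stayed within 1.5 times under each alternative. It ran over 7 to 9, 4 to 8 and 4 to 8 (7 to 9, 4 to 7 and 4 to 7 with 1 library left out). The share over all genes moved more. From 34.5%, 28.7% and 17.3% it went to 60.5%, 52.6% and 43% without the 3 outlying libraries. With the GC slope as a covariate it was 59.8%, 57.7% and 47.3%, and with no filter 15.2%, 12.4% and 6.42%. The 3 genes called for starvation in depleted cells became 5 with a GC trend removed as an offset, 5 with the GC slope as a covariate, 5 without the 3 outlying libraries, and 1 to 2 with 1 library left out; the share over all genes went from 7.18% to 11.3%, 26.6% and 17.6% in the first 3. The 2 called for OGDH loss with glucose became 0 with only the groups compared, 5 with the GC offset, 6 with the GC covariate, 5 without the 3 libraries, and 0 to 1 with 1 left out; the share over all genes went from 3.04% to 1.22%, 7.72%, 23.5% and 10.8% in the first 4. The covariate and the removal of 3 libraries were chosen after seeing the data. The cause of these changes was not tested.

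All values that changed sign were uncalled before and after. For starvation in control cells TEF was -0.048 with upper-quartile scaling, -0.015 with no filter and -0.43 without the 3 libraries, and ran from -0.24 to 0.20 with 1 library left out. For starvation in depleted cells the GC offset gave 0.34 for PER1, 0.091 for DBP and 0.029 for TEF, and the GC covariate 0.27 for DBP and 0.21 for TEF; with 1 library left out PER1 ran from -0.082 to 0.0085, PER3 from -0.24 to 0.10 and DBP from -0.47 to 0.014. NR1D1 was -0.053 for OGDH loss with glucose with the GC offset. In the interaction TEF ran from -0.38 to 0.064 with 1 left out and was 0.32 without the 3 libraries and 0.017 with the covariate, and BHLHE41 was -0.15 without the 3 libraries.

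With the replicate number as a block, NR1D2 in starved depleted cells (0.72, adjusted p = 0.0625) and PER2 in the interaction (-0.76, adjusted p = 0.0769) were no longer called, and no other call changed; over all alternatives their adjusted p ran from 0.000195 to 0.145 and from 0.00378 to 0.127. Same-numbered libraries did not deviate together (18 pairs, r -0.69 to 0.64, 7 over 0.1). These deviations include the differences in GC slope between libraries, so the check cannot exclude a shared culture or day. Among the 10, the SE of the interaction was largest for DBP (0.44), BHLHE41 (0.37), TEF (0.35) and PER3 (0.33).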
